A study of Mus musculus with 8 samples.

Results

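Nrep, the gene of neuronal regeneration related protein (also called P311), is described here across the 8 muscle libraries of a mouse model of cancer cachexia. It is 1 of the 53819 gene symbols in the deposited count table and 1 of the 14070 genes counted deeply enough to be tested. It was chosen by its log2 fold change in these same libraries, the lowest among well measured genes whose groups did not overlap, so its own difference between groups is given as a description, with no test. The study injected 500000 cells of B0092, a head and neck squamous cell carcinoma line, under the skin at the nape of 4 wild-type C57BL/6J mice (tumor group). The 4 control mice, of the same strain and genotype, received the vehicle, phosphate-buffered saline, in the same volume. All mice were 8 weeks old at the start, and quadriceps muscle was taken on day 36, when the series description gives a weight loss of about 10%. Total RNA went into an mRNA-Seq library kit, and the 8 libraries stand for 8 mice, so the spread within a group is between animals. The sex of the mice is not given in the sources used here.

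Nrep encodes a small intracellular protein without known enzyme activity that was first studied in the nervous system and is also made by smooth muscle and by the contractile fibroblasts of healing wounds. In mice and cultured cells it is known to raise the production of the transforming growth factors beta (TGF-beta) at the level of translation, and to bind a subunit of the translation initiation factor eIF3. It has also been linked to axon growth after nerve injury and to lipid storage induced by retinoic acid. The gene lists set beside Nrep below follow these roles and the cell types a piece of muscle can hold.

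The libraries held 28436254 to 36139478 estimated counts. Transcripts of Myh4, the fast 2B myosin, made up 80.3% to 98.9% of all adult myosin heavy chain reads in tumor libraries and 64.6% to 98.0% in control libraries, so the tissue carried the markers of a fast muscle throughout. Control library 4 stood apart by its slow fibre genes and tumor library 2 had the lowest Myh4 share of its group. The keratin genes Krt5, Krt14, Krt6a, Krt15 and Krt17 and the desmosome gene Dsg3, which mark squamous epithelium, were at 0 counts in all 8 libraries. Mitochondrial transcripts took 10.2%, 14.8%, 8.16% and 7.91% of the counts in tumor libraries 1 to 4, against 16.3%, 13.6%, 12.9% and 22.7% in control libraries 1 to 4. In tumor libraries 1, 3 and 4 this share was below that of every control, and its part in the results was not tested.

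Nrep messenger RNA was at a small remainder of its control level in tumor-bearing mice. It stood at 9.51, 2.92, 2.35 and 2.87 CPM in tumor libraries 1 to 4. CPM is the count scaled to a fixed library total, here with TMM factors. In control libraries 1 to 4 it stood at 123, 115, 86.1 and 68.1 CPM. Every tumor value lay far below every control value, and the lowest control value was 7.16 times the highest tumor value. The means were 4.41 ± 3.41 CPM in tumor mice and 98.2 ± 25.6 CPM in control mice (SD, n = 4 each), so that the tumor mean was 4.49% of the control mean. The edgeR estimate of the log2 fold change was -4.48 ± 0.48 (SE), a 22.3-fold lower level. In a bulk sample, fewer cells that express Nrep and less Nrep RNA per cell cannot be told apart.

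**Figure D1:**
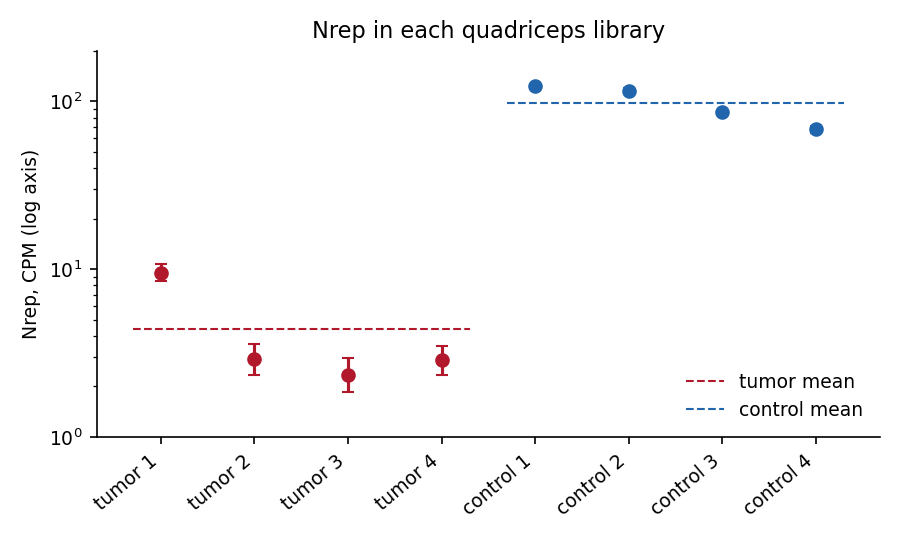
Nrep level in each quadriceps library, in CPM on a log axis. Red points are tumor libraries and blue points control libraries, bars are exact Poisson 95% intervals of the count (narrower than the points in controls), and dashed lines are group means. The tumor libraries lie between 2.35 and 9.51 CPM and the control libraries between 68.1 and 123 CPM.

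The counts behind these levels were 289, 90, 73 and 100 in tumor libraries 1 to 4, and 3541, 3486, 2977 and 1881 in control libraries 1 to 4. They were whole numbers to within 0.001 in all 8 libraries, as deposited. The exact Poisson 95% interval, which covers counting error only, was 8.45 to 10.7 CPM for tumor library 1. It was 2.35 to 3.59 CPM for tumor library 2, 1.84 to 2.95 CPM for tumor library 3 and 2.34 to 3.49 CPM for tumor library 4. The intervals of tumor libraries 2, 3 and 4 overlapped, while tumor library 1 lay above them by more than counting error, at 3.51 times their mean of 2.71 ± 0.32 CPM (SD, n = 3). Among controls the interval of library 1 was 119 to 127 CPM and that of library 2 was 112 to 119 CPM, and libraries 3 (83.1 to 89.3 CPM) and 4 (65.1 to 71.3 CPM) lay below both. On the log2 scale the SD between mice was 0.91 in tumor libraries and 0.39 in control libraries. Of the 10820 tested genes whose average log2 CPM reached 1, 95.5% had a smaller SD in tumor libraries and 84.5% a smaller SD in control libraries.

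The fall was present whichever library was left out. The fold was 36.1 without tumor library 1 and between 19.2 and 24.5 without any other single library. Without both control library 4 and tumor library 2, which stood apart in fibre type, it was 22.3.

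Among all genes, 2781 of 14070 (19.8%) were called at an adjusted p under 0.05 by the edgeR quasi-likelihood test with Benjamini-Hochberg adjustment, with 1552 higher (11.0%) and 1229 lower (8.73%) in tumor libraries. The split was 1169 higher and 1547 lower with upper-quartile scaling, and 1813 higher and 788 lower with scaling by total counts. Genes called higher numbered 1551, 1331, 708 and 1495 without tumor libraries 1 to 4 in turn, and 630, 760, 1004 and 1287 without control libraries 1 to 4. Those called lower numbered 1294, 1450, 482 and 1147, and 480, 613, 854 and 979, in the same order. List counts with a library left out are to be read against these numbers. The groups did not overlap in 25.0% of genes in either direction. In 1614 genes (11.5%) all tumor values lay below all control values, and Nrep was one of them. Only 6 tested genes had a lower log2 fold change than Nrep, and all were genes of slow fibres or of the heart whose groups overlapped: Myl3, Myh7, Tnnc1, Myl2, Tnnt1 and Tnni1. Their folds rested largely on control library 4. Myh7, the slow myosin heavy chain, had 3.03, 4.09, 1.41 and 0.115 CPM in tumor libraries 1 to 4, against 119, 16.4, 1.48 and 2164 CPM in control libraries 1 to 4, and its fold was 267 with control library 4 and 21.2 without it. Among the same 10820 better measured genes, the ratio of the lowest control value to the highest tumor value was the largest for Nrep, at 7.16, and the next was 5.90 for Foxo6os. Nrep also stood first by fold among the 951 called genes that fell without overlap at that level, ahead of Mettl21c (18.2-fold lower), Actc1 (13.3-fold), Foxo6os (12.3-fold), Amd-ps3 (11.0-fold), a pseudogene copy whose reads may belong to related genes, and the water channel gene Aqp4 (9.83-fold). These ranks describe the choice of Nrep and support nothing further.

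**Figure D2:**
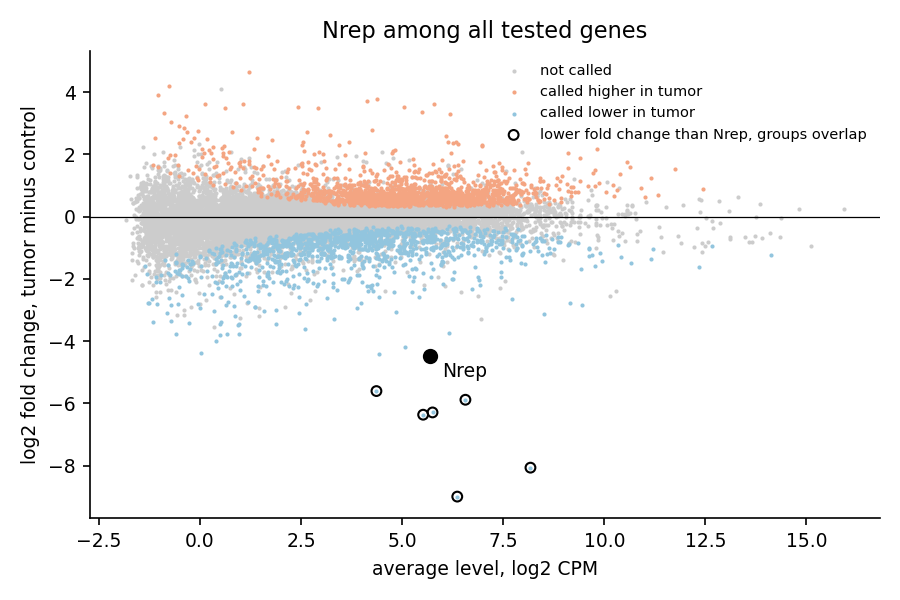
Log2 fold change (tumor minus control) of the 14070 tested genes against their average level in log2 CPM. Orange and blue points were called higher and lower in tumor mice, grey points were not called, and Nrep is the black point at -4.48. The 6 circled genes below it are slow fibre or cardiac genes whose groups overlap.

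The genes whose whole pattern was most like that of Nrep were Mettl21c, Actc1, Mdga1, Foxo6os and Kcng4. Likeness was measured as the root mean square difference from Nrep over the 8 libraries, in log2 CPM relative to the control mean of each gene, which favours other genes with large falls. It was 0.58 for Mettl21c, 0.95 for Actc1, 1.00 for Mdga1, 1.01 for Foxo6os and 1.07 for Kcng4, and its median over 10228 candidate genes was 3.38. Mettl21c, a lysine methyltransferase of muscle, had 8.46, 1.36, 2.22 and 1.95 CPM in tumor libraries 1 to 4, against 80.2, 104, 51.4 and 19.1 CPM in control libraries 1 to 4. Like Nrep, it was highest in library 1 among tumor mice and lowest in library 4 among controls, but it varied more among controls. Actc1, the cardiac actin of developing muscle, had 23.7, 4.67, 6.20 and 5.34 CPM in tumor libraries, against 87.3, 129, 275 and 40.4 CPM in control libraries. It shared the high value in tumor library 1 and the lowest control value in library 4, but peaked in control library 3, where Nrep did not. Mdga1, which encodes a cell adhesion protein of the immunoglobulin family, had 8.26, 2.63, 1.16 and 1.38 CPM in tumor libraries, against 33.4, 32.5, 19.1 and 18.3 CPM in control libraries. Its order among controls was that of Nrep, with libraries 1 and 2 above 3 and 4. Kcng4, a modifying subunit of voltage-gated potassium channels, had 11.2, 2.66, 3.76 and 6.86 CPM in tumor libraries, against 60.3, 54.9, 51.0 and 38.5 CPM in control libraries, and it too was highest in tumor library 1 and lowest in control library 4. Foxo6os, a transcript antisense to Foxo6, was low without a peak in tumor library 1 (0.86 CPM), and its reads could be shared with Foxo6 because the strand setting of the counting is not given. Without tumor library 1 the folds were 34.4 for Mettl21c, 24.5 for Actc1 and 15.0 for Mdga1, against 18.2, 13.3 and 7.72 with it, and without control library 3 that of Actc1 was 8.56.

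Within the groups, leaving the difference between them aside, the nearest genes were Smco1, Fn3k, Pnck, Adgrd1 and Iigp1. Here each value was taken relative to the mean of its own group, and the root mean square difference from Nrep was 0.19, 0.21, 0.23, 0.25 and 0.26 on the log2 scale for these genes in that order, against a median of 0.65 over the candidates. Nrep deviated from its group mean by 1.34, -0.34, -0.65 and -0.36 in tumor libraries 1 to 4, and by 0.37, 0.27, -0.15 and -0.49 in control libraries 1 to 4. All 5 genes shared the high value in tumor library 1 and the lowest control value in library 4, which their choice by likeness to Nrep favours. Of all tested genes, 11.0% were highest among tumor mice in library 1 and lowest among controls in library 4. Smco1, which encodes a membrane protein with a coiled coil, had 21.9, 9.38, 6.52 and 8.30 CPM in tumor libraries, against 37.4, 37.5, 36.8 and 28.1 CPM in control libraries. It fell 3.03-fold (log2 fold change -1.60 ± 0.34, SE, adjusted p = 0.0128, edgeR). Fn3k, whose enzyme removes sugars bound to proteins, fell 2.51-fold (adjusted p = 0.0419) and the calcium/calmodulin-dependent kinase gene Pnck fell 2.41-fold (adjusted p = 0.0387), both with overlapping groups. Neither held its call when a single library other than tumor library 1 or control library 4 was left out, where the adjusted p ran from 0.0639 to 0.119, and the Fn3k fold was 3.86 without tumor library 1. The adhesion receptor gene Adgrd1 had 7.44, 3.08, 3.37 and 3.42 CPM in tumor libraries, against 4.63, 4.73, 3.76 and 3.37 CPM in control libraries, where the log2 fold change was 0.07 ± 0.30 (adjusted p = 0.895). Iigp1, an interferon-inducible GTPase gene, was at -0.49 ± 0.43 on the log2 scale (adjusted p = 0.453), but at -1.17 and past the threshold without tumor library 1 (adjusted p = 0.0169). Genes that varied between mice as Nrep did included some with little difference between the groups.

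**Figure D3:**
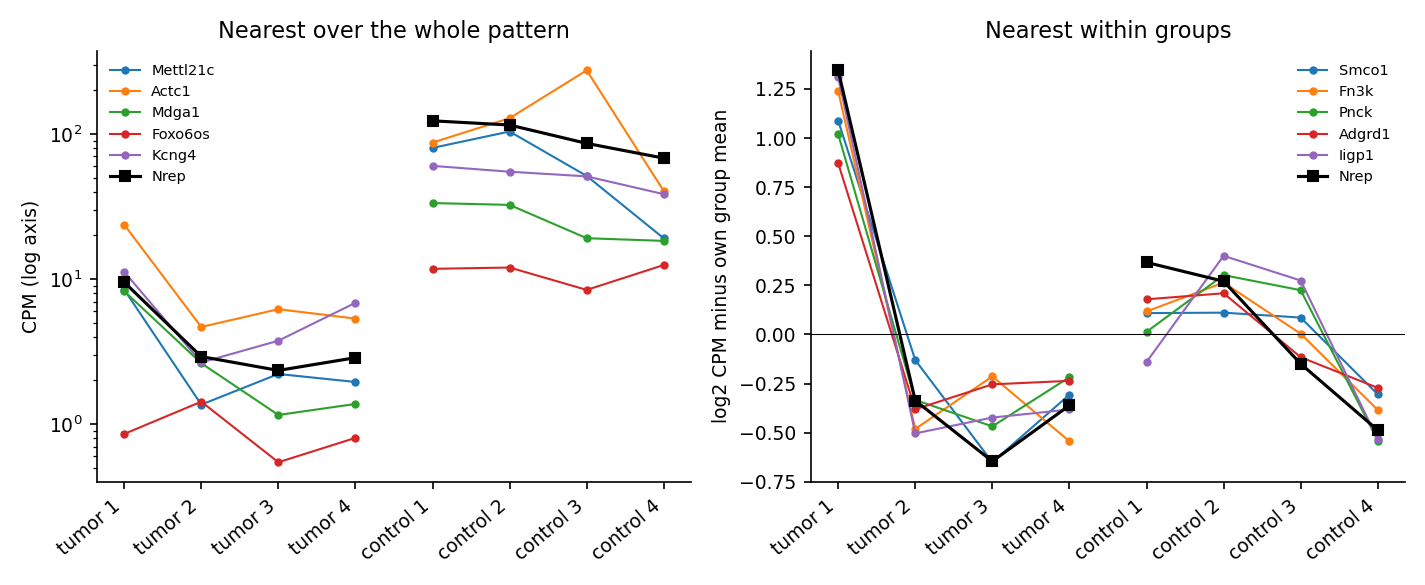
Left, levels in CPM on a log axis of Nrep (black squares) and the 5 genes nearest to it over the whole pattern. Right, log2 CPM relative to the mean of the own group for Nrep and the 5 genes nearest within groups. Lines join the libraries of 1 group for each gene and carry no order. In the right panel every gene is highest in tumor library 1 and lowest among controls in library 4, and the 5 genes were chosen for likeness to Nrep.

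Tumor library 1 was the highest of the 4 tumor libraries in 25.2% of all tested genes, in 45.8% of the genes called lower and in 4.51% of the genes called higher. It was the lowest tumor library in 23.7% of all tested genes and in 51.9% of those called higher. For many of the genes that changed, this mouse therefore lay nearest to the controls of its group, as it did for Nrep, where it had 9.69% of the control mean. Control library 4 was the lowest control in 32.4% of all genes and 33.3% of those called lower. Tumor library 1 had the highest Myh4 share of all 8 libraries (98.9%) and control library 4 the lowest (64.6%). The part of fibre type in the level of Nrep was not tested. In control libraries 1 to 4 the Myh4 share was 88.5%, 95.1%, 98.0% and 64.6%, beside 123, 115, 86.1 and 68.1 CPM of Nrep.

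The 3 TGF-beta ligand genes did not differ detectably between the groups. Tgfb1 had 5.86, 2.37, 5.24 and 4.91 CPM in tumor libraries 1 to 4, against 3.62, 5.23, 4.77 and 5.58 CPM in control libraries 1 to 4 (log2 fold change -0.06 ± 0.28, SE, adjusted p = 0.895, edgeR). Tgfb2 was at 0.06 ± 0.15 on the log2 scale (adjusted p = 0.812) and averaged 21.5 ± 3.54 CPM in tumor mice and 20.7 ± 2.72 CPM in control mice (SD, n = 4 each). Tgfb3 was at 0.09 ± 0.17 on the log2 scale (adjusted p = 0.761), with 44.3 ± 9.21 CPM in tumor mice and 41.7 ± 6.76 CPM in control mice. The values of all 3 ligand genes overlapped between the groups. These are RNA levels, and the translation step on which Nrep is known to act was not measured.

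Receptors and signal carriers of TGF-beta moved in both directions. Of the 24 genes in this list, all of them tested, 4 rose and 5 fell (37.5% called, against 19.8% of all genes). The median log2 fold change was -0.11, beside 0.00 for all genes. Tgfbr3, a co-receptor that presents the ligand, rose 2.14-fold, with 42.6, 41.3, 32.3 and 30.3 CPM in tumor libraries, against 15.4, 16.4, 20.6 and 15.9 CPM in control libraries (adjusted p = 0.00355). Tgif1, a repressor of the transcription these signals drive, rose 1.94-fold, with 14.9, 14.3, 14.7 and 12.3 CPM in tumor libraries, against 6.16, 6.42, 8.97 and 7.43 CPM in control libraries (adjusted p = 0.00476). Smad6, an inhibitory member of the Smad family, fell 2.23-fold, to 2.74 ± 0.44 CPM in tumor mice, against 6.10 ± 0.65 CPM in control mice (adjusted p = 0.00499). The inhibitory member Smad7 did not pass (log2 fold change -0.30 ± 0.22, SE, adjusted p = 0.361, edgeR). The other 2 higher genes were the receptor gene Tgfbr1 and the common mediator gene Smad4. The other 4 lower ones were Smad3, the co-receptor gene Eng and Ltbp4 and Lrrc32, which hold the latent ligand. Smad3 had the largest change of the list, a 3.41-fold fall (adjusted p = 0.00503, edgeR). It had 45.3, 17.0, 40.1 and 39.5 CPM in tumor libraries, against 146, 138, 103 and 95.8 CPM in control libraries. The 4 higher genes became 2 without control library 1, where 630 of all genes were called higher, against 1552 with all 8 libraries.

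Among known targets of TGF-beta, all called genes were lower. Of 16 target genes, 0 rose and 4 fell. These are 25.0% of the list, against 8.73% of all genes called lower and 19.8% called in either direction. The median log2 fold change was -0.46. The called genes were the collagen genes Col1a2, Col3a1 and Col5a1 and the matrix gene Postn. Col5a1 fell 2.98-fold without overlap, to 9.77 ± 4.97 CPM in tumor mice, against 29.1 ± 5.41 CPM in control mice (SD, n = 4 each, adjusted p = 0.0109, edgeR). Col3a1 fell 4.11-fold (adjusted p = 0.0263) and Postn 3.98-fold (adjusted p = 0.0316). The count of lower genes was 1 without tumor library 3 or control library 1, and 2 without tumor library 4 or control library 2, 3 or 4. Over all genes, 482 were called lower without tumor library 3 and 480 without control library 1, against 1229 with all libraries. They numbered 1147 without tumor library 4, and 613, 854 and 979 without control libraries 2, 3 and 4. Col3a1 lost its call without tumor library 3 or control library 1, 2 or 3 (adjusted p from 0.0514 to 0.0838). Postn lost it without tumor library 1, 3 or 4 or control library 1 or 4 (adjusted p from 0.0644 to 0.1), and it did not pass by limma-voom either (adjusted p = 0.0765). As for Nrep, the mean log2 CPM of the 16 target genes was highest among tumor mice in library 1 (3.35, against 2.33 to 3.23 in the other 3). Among controls it was 3.84 in library 4, where Nrep was lowest, and 3.16 to 3.82 in the others.

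Subunits of eIF3, the initiation factor that Nrep protein is known to bind, were mostly higher where Nrep was lower. Of the 14 subunit genes, 10 rose and 0 fell (71.4% called, against 19.8% of all genes, of which 11.0% rose), all 14 had a positive log2 fold change and the median was 0.65. Eif3b, the subunit that binds Nrep protein, had 152, 188, 210 and 227 CPM in tumor libraries 1 to 4, against 106, 100, 107 and 119 CPM in control libraries 1 to 4. It rose 1.80-fold (log2 fold change 0.85 ± 0.14, SE, adjusted p = 0.00574). Eif3c rose 1.89-fold (adjusted p = 0.00535) and Eif3e 1.72-fold (adjusted p = 0.00399). Eif3j1 and Eif3j2, near-identical copies whose reads could be divided between them, were both among the 10. The mean log2 CPM of the list was lowest among tumor mice in library 1, at 6.62 against 6.80 to 6.91 in the other 3, and lay between 6.13 and 6.24 in controls. The count was 5 without tumor library 3 and 6 without control library 1 or 2. Over all genes, those called higher in these fits numbered 708, 630 and 760 in that order, against 1552 with all 8 libraries.

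Of 16 genes of retinoic acid synthesis, binding and signalling, 13 were tested, 0 rose and 3 fell. These are 23.1% of the tested list, against 8.73% of all genes called lower and 19.8% called in either direction. The median log2 fold change was -0.38. The receptor genes Rarb and Rarg fell. Rarb had 4.18, 2.66, 3.50 and 5.48 CPM in tumor libraries, against 8.63, 9.03, 11.5 and 8.62 CPM in control libraries, a 2.39-fold fall (adjusted p = 0.0073, edgeR). Rarg fell 1.83-fold (adjusted p = 0.00685), to 4.89 ± 0.79 CPM in tumor mice, against 8.94 ± 0.48 CPM in control mice. Cyp26b1, which breaks retinoic acid down, fell 2.63-fold with overlapping groups (adjusted p = 0.0298). It lost its call without tumor library 1, 2 or 3 or control library 1, 3 or 4 (adjusted p from 0.0539 to 0.093) and under scaling by total counts (adjusted p = 0.0693).

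Nrep takes its name from nerve regeneration, but genes of axon growth did not share its fall. Of 18 such genes only 11 were counted deeply enough to be tested, 2 rose and 2 fell (36.4% called, against 19.8% of all genes), and the median log2 fold change was 0.02. The growth cone gene Gap43 had 16 counts in all 8 libraries together. Klf6, a transcription factor that aids axon regrowth in fish, rose 2.25-fold, to 47.0 ± 10.2 CPM in tumor mice, against 20.9 ± 5.19 CPM in control mice (adjusted p = 0.00637). Stmn2, a microtubule regulator of neurons, fell 4.67-fold (adjusted p = 0.0146) from a low level, with 0.59 ± 0.19 CPM in tumor mice and 2.79 ± 1.98 CPM in control mice. Its fold was 3.06 without control library 4, and it no longer passed when tumor library 3 was left out (adjusted p = 0.0537). Klf7 fell 1.63-fold (adjusted p = 0.0213) and lost its call without tumor library 3 or control library 1 or 2 (adjusted p from 0.0547 to 0.0691). The counts were 1 higher without any one of tumor libraries 1, 2 and 3 or control libraries 1, 2 and 3. They were 0 lower without tumor library 3, and 1 lower without control library 1 or 2. None of the 10 tested Schwann cell genes was called, and their summed level was 24.0 to 66.6 CPM in tumor libraries and 29.4 to 64.3 CPM in control libraries. The myelin gene Pmp22 had the smallest p among them (-0.47 ± 0.24 on the log2 scale, adjusted p = 0.19, edgeR), and it passed without tumor library 2 (adjusted p = 0.0178).

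**Figure D4:**
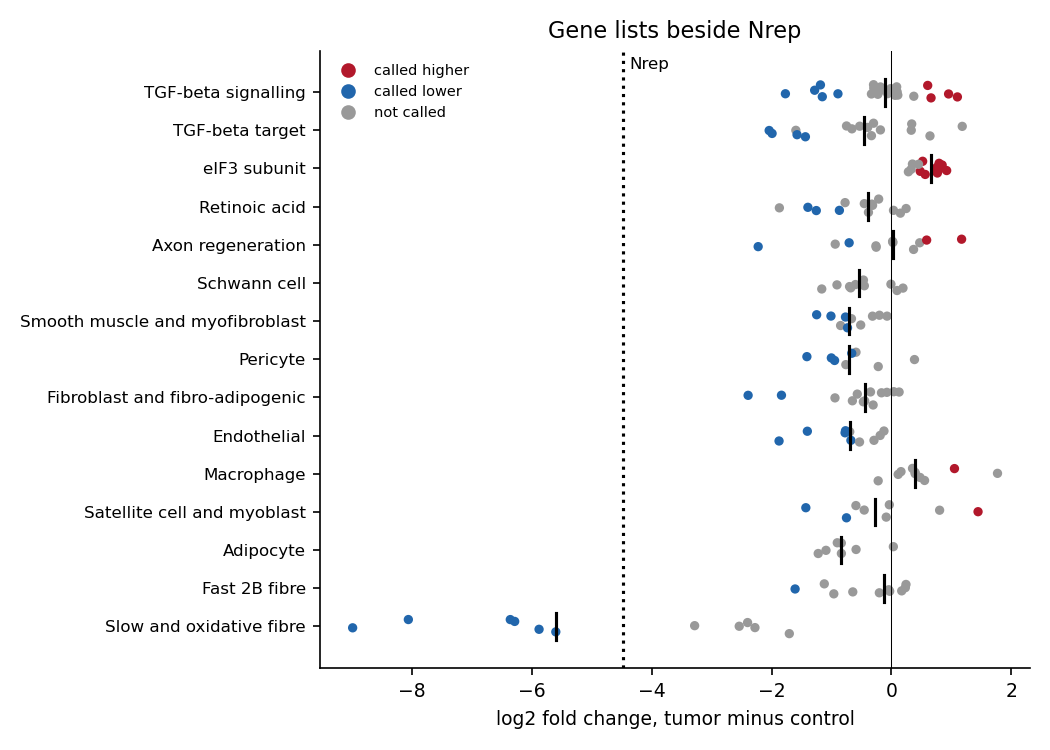
Log2 fold change (tumor minus control) of the tested members of 15 gene lists. Each point is a gene, red where called higher, blue where called lower and grey where not called, black bars are list medians, and the dotted line is Nrep at -4.48. Slow fibre genes are the 1 list with members at or beyond Nrep, and their groups overlap.

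Markers of the cell types in which Nrep is known, and of others that a muscle sample holds, lay nearer to their control levels than Nrep did when all 8 libraries were used. Of all tested genes 8.73% were called lower, against which the counts of these lists are to be read. With 1 library left out, the genes called lower over the whole table ran from 480 (control library 1) to 1450 (tumor library 2), against 1229. Of 10 tested smooth muscle and myofibroblast genes 4 fell and 0 rose. The median log2 fold change was -0.70, and their summed level was 580 to 819 CPM in tumor libraries and 736 to 1062 CPM in control libraries. Most of that sum was 1 gene, Synpo2, which was not called (adjusted p = 0.257, edgeR). Synpo2 had 592 ± 122 CPM in tumor mice and 738 ± 108 CPM in control mice, so the sum says little about the other members. Acta2, the smooth muscle actin that marks myofibroblasts, fell 2.38-fold without overlap, to 7.64 ± 1.91 CPM in tumor mice, against 18.2 ± 6.35 CPM in control mice (SD, n = 4 each, adjusted p = 0.0121, edgeR). Tagln, of the same cells, was at -0.07 ± 0.16 on the log2 scale (adjusted p = 0.781), and Smtn fell 2.01-fold (adjusted p = 0.00668). The smooth muscle count was 2 without tumor library 1, 3 or 4 or control library 1 or 4, and 7 without tumor library 2. Of 8 pericyte genes 4 fell, with a median of -0.71 and a summed level of 373 to 553 CPM in tumor libraries and 423 to 580 CPM in control libraries. The largest part of that sum was Abcc9, at 320 ± 39.9 CPM in tumor mice and 245 ± 18.4 CPM in control mice. Abcc9 was the 1 member with a positive log2 fold change (0.38 ± 0.13, adjusted p = 0.0685, edgeR), so the sum does not follow the genes that fell. Vtn fell most clearly, to 4.04 ± 0.86 CPM in tumor mice, against 10.7 ± 2.11 CPM in control mice (2.66-fold, adjusted p = 0.00399). The pericyte count was 2 without tumor library 3 and 1 without control library 1. Of 10 endothelial genes 5 fell, with a median of -0.69 and a summed level of 119 to 223 CPM in tumor libraries and 211 to 324 CPM in control libraries, led by Kdr, a receptor of vascular growth factor (3.67-fold, adjusted p = 0.00613), and Emcn (2.65-fold, adjusted p = 0.00628). The endothelial count was 3 without tumor library 3 or control library 1. None of the 9 lists of Schwann, smooth muscle, pericyte, fibroblast, endothelial, macrophage, satellite, adipocyte and squamous genes had, with all 8 libraries, a median log2 fold change below -0.84 or a member at or beyond the -4.48 of Nrep. That lowest median was of adipocyte genes and was -2.87 without tumor library 2. With 1 library left out, the lowest medians of the pericyte, smooth muscle and Schwann lists were -0.98, -0.94 and -0.88. The part of these cell types in the fall of Nrep was not tested.

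Fibroblast and fibro-adipogenic genes were mostly not called, with 2 of 13 lower (15.4%, against 8.73% of all genes) and a median of -0.45 on the log2 scale. Their summed level was 619 to 1197 CPM in tumor libraries and 655 to 1068 CPM in control libraries. Gsn was the largest part of it, at 486 ± 217 CPM in tumor mice and 546 ± 159 CPM in control mice. The 2 that fell were Col15a1 (5.25-fold, adjusted p = 0.00393), a collagen of basement membranes with 9.18, 3.15, 4.08 and 6.29 CPM in tumor libraries, against 37.8, 34.5, 28.7 and 18.3 CPM in control libraries, and Pi16 (3.57-fold, adjusted p = 0.00355). Col15a1 and Pi16 were both highest among tumor mice in library 1, as was Nrep, and Col15a1 was also lowest among controls in library 4. The defining receptor gene Pdgfra was at 0.13 ± 0.16 on the log2 scale (adjusted p = 0.615). Of 10 macrophage genes 1 rose and 0 fell (10% higher, near the 11.0% of all genes, median 0.39). Their summed level was 54.3 to 183 CPM in tumor libraries and 72.1 to 128 CPM in control libraries. Cd163 was the one that rose (2.07-fold, adjusted p = 0.0113). Of 11 satellite cell and myoblast genes 8 were tested, with a summed level of 75.5 to 131 CPM in tumor libraries and 76.2 to 106 CPM in control libraries. Of the 8, 1 rose and 2 fell (37.5% called, against 19.8% of all genes), with a median of -0.27. The cadherin gene Cdh15 rose 2.72-fold (adjusted p = 0.0024), while the myogenic factor gene Myod1 fell 2.69-fold (adjusted p = 0.00528) and Vcam1 fell 1.68-fold (adjusted p = 0.0421). Vcam1 lost its call without any single library except tumor library 2 (adjusted p from 0.0594 to 0.123). None of 7 adipocyte genes was called with all libraries, although their summed level ran from 109 to 1163 CPM in tumor libraries and from 178 to 1365 CPM in control libraries. Without tumor library 2, 2 adipocyte genes fell, and without both that library and control library 4 all 7 fell. Of the 10 squamous genes 3 were tested and 1 was called (33.3%, against 19.8% of all genes). It was Trp63, which rose 3.01-fold (adjusted p = 0.00484), while the 6 named above were at 0. The summed level of the tested 3 was 17.8 to 39.4 CPM in tumor libraries and 8.53 to 11.6 CPM in control libraries.

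The genes of fast fibres, which made up most of the tissue, did not share the fall either. Of 10 fast fibre genes 1 fell and 0 rose (10% lower, near the 8.73% of all genes, median -0.12). It was the myosin light chain gene Myl1 (3.05-fold, adjusted p = 0.0136, edgeR), which did not pass without tumor library 3 (adjusted p = 0.0507). The count was 4 without tumor library 1 and 4 by DESeq2. Of 11 slow and oxidative genes 6 fell (54.5%, against 8.73% of all genes), with a median of -5.60. Their summed level, however, was 280.5 to 2437 CPM in tumor libraries and 464 to 17382 CPM in control libraries, so the groups overlapped. The slow count was 0 without tumor library 3, 1 without tumor library 1 or 4 or control library 1, 2 without control library 4 and 0 by limma-voom. Among controls 1 to 4 the summed slow level was 3700, 1421, 464 and 17382 CPM, beside 123, 115, 86.1 and 68.1 CPM of Nrep. Both ran in the same order in control libraries 1, 2 and 3, while in control library 4 the slow level was the highest and Nrep the lowest.

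Genes next to Nrep on mouse chromosome 18 moved in both directions, and none changed as far as Nrep. In the GRCm38.p6 gene order, the 3 tested genes on one side are Stard4, Wdr36 and Tslp and the 3 on the other are Gm10549, Epb41l4aos and Epb41l4a. Stard4, a cholesterol carrier gene, fell 2.15-fold at a low level of 1.14 ± 0.35 CPM in tumor mice and 2.46 ± 0.68 CPM in control mice (adjusted p = 0.0386). Wdr36, a ribosome assembly gene, rose 1.38-fold (adjusted p = 0.0283). Stard4 lost its call without any single library except tumor library 2 and control library 3 (adjusted p from 0.0645 to 0.105). Wdr36 lost it without any except tumor library 1 and control library 3 (adjusted p from 0.057 to 0.0774). Neither passed without the count filter (adjusted p = 0.0562 for Stard4 and 0.0689 for Wdr36). Epb41l4aos, a noncoding RNA, rose 2.96-fold, with 6.81, 10.3, 7.29 and 5.68 CPM in tumor libraries, against 2.30, 2.81, 2.26 and 2.79 CPM in control libraries (adjusted p = 0.00355). Epb41l4a (log2 fold change -0.78 ± 0.41, adjusted p = 0.209) and Tslp (0.65 ± 0.75, adjusted p = 0.578) did not pass. Gm10549 is a noncoding gene on the opposite strand that overlaps the first bases of Nrep in that annotation, so without a stated strand setting its reads and those of Nrep cannot be told apart there. It had 12, 0, 0 and 4 counts in tumor libraries, against 27, 19, 18 and 19 counts in control libraries. Like Nrep, Gm10549 was lower in every tumor library and highest of these in library 1. Among controls its order was not that of Nrep, with 0.52 CPM in library 3 and 0.69 CPM in library 4. Stard4 was also lower in every tumor library, but was highest of these in library 2. The Gm10549 log2 fold change of -2.42 ± 0.90 did not pass (adjusted p = 0.0872). Its fold was 5.33, and 15.7 without tumor library 1, and it passed by DESeq2 (adjusted p = 0.0413), by limma-voom (adjusted p = 0.0255) and without tumor library 1 (adjusted p = 0.0209).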

How the data were processed

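For 8 libraries the authors deposited 1 table of estimated counts per gene symbol; 9.00% of its entries were fractional. The submitters' processing notes name build GRCm39 and the tools STAR (2.7.9a), Salmon (1.10.1), Trim Galore (0.6.7), cutadapt (3.4) and R (4.2.2). Which tool did what, the annotation and the strand setting are not stated. Groups came from the sample titles, and columns were matched by library name.

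Counts were rounded. Genes were kept by filterByExpr (minimum count 10), scaled by TMM and tested two-sided by quasi-likelihood in edgeR 4.0.16 under R 4.3.3. Group was the only term; Benjamini-Hochberg adjustment ran over 14070 genes (99.92% of all counts), with a threshold of 0.05. SE is the size of the log2 fold change over the root of F. Log2 CPM for patterns used a prior count of 2. Steps were tested on simulated counts. Alternatives covered scaling, count filter, DESeq2 1.42.0, limma-voom (limma 3.58.1), each library left out and the replicate number as a block.

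Nrep and the gene lists were chosen with earlier results of these data known. Named genes were the 5 nearest to Nrep by each pattern (average log2 CPM of at least 1, no clone, predicted-gene or pseudogene symbols), up to 3 called members of each list by p (2 where none was called), the TGF-beta ligands, Eif3b, Acta2 and Tagln, 3 neighbours on each side and the 5 next falls. Pdgfra, Gap43 and the remaining list members named were added after their values were seen. A gene that the rule names is not reported here.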

Additional observations from a re-analysis of the deposited data

Results flagged for a closer look

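In 4 values of a group, 1 value was far from the other 3 when its gap to the nearest passed Dixon's 95% critical value as a share of the whole range. Of 122 groups of 4 values (61 named genes, tumor and control), 21 did so, 20 of them at the high end. Chance gives about 1 in 20 for normally distributed values, which CPM need not be. The values of a library are also not independent across genes.

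Tumor library 1 was the high value in 8 groups: Nrep (9.51 CPM, next 2.92), Mettl21c (8.46 CPM), Actc1 (23.7 CPM), Fn3k (9.35 CPM), Pnck (4.08 CPM), Adgrd1 (7.44 CPM), Iigp1 (9.97 CPM) and Myl1 (4320 CPM). Of these, Fn3k, Pnck, Adgrd1 and Iigp1, like Smco1 below, were named for varying as Nrep does within groups, and Mettl21c and Actc1 for a pattern like that of Nrep, so their values are no separate support.

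Tumor library 2 was the high value for Cald1 (15.6 CPM), Kdr (14.8 CPM), Fabp4 (423 CPM) and Retn (15.4 CPM), and tumor library 4 for Cyp26b1 (5.34 CPM). Control library 4 was the high value for Myl3 (592 CPM), Myh7 (2160 CPM), Tnnc1 (330 CPM), Eif3c (166 CPM) and Epb41l4a (3.48 CPM), and the low value for Smco1 (28.1 CPM). Control library 3 was the high value for Rarb (11.5 CPM) and control library 1 for Emcn (7.73 CPM).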

How the results depend on the processing

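The log2 fold change of Nrep was -4.48 and ran from -4.70 (limma-voom) to -4.41 (total counts only) over other scalings, filters and tests, and from -5.17 to -4.27 with 1 library left out. No called value changed direction under any of them. The number of called genes was 2781, and with 1 library left out 1110 to 2845. In those fits the TGF-beta signalling list gave 2 to 4 higher and 4 to 5 lower genes, its targets 0 to 1 higher and 1 to 5 lower, and the eIF3 list 5 to 12 higher. Without both control library 4 and tumor library 2, 1 target gene was called higher. The share of higher among called genes was 55.8%, but 43.0% with upper-quartile scaling and 69.7% with total counts only, where the median log2 fold change of all genes was 0.12, against 0.00. With the replicate number as a block, 1932 genes were called and Nrep was at -4.67. Same-numbered libraries deviated together weakly (correlation 0.016 to 0.197 over genes), and 4 of 8 libraries correlated best with their own number, so the numbers were not taken as pairs. The 5 nearest genes by each pattern were all found again with a prior count of 0.5. The 4 mice per group limit every comparison, and the 73 to 289 Nrep counts in tumor libraries limit the order among them.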
